A study of Arabidopsis thaliana with 12 samples.

Results

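Transcript levels of 4 genes of plastid thiol redox chemistry were followed from the dark night into the first hour of light in Arabidopsis thaliana, the thale cress. They are SRX (AT1G31170), which encodes sulfiredoxin, AT3G52960, which encodes a peroxiredoxin, AT2G04700, which encodes a subunit of ferredoxin-thioredoxin reductase, and NTRC (AT2G41680), which encodes NADPH-dependent thioredoxin reductase C. Each is on 1 array probe whose annotation lists that gene and no other, and the 4 belong to 691 genes measured on such single-gene probes. They were chosen with the difference between light and dark in these same arrays known. That difference is therefore given as a description, with no test. The samples were wild-type plants of ecotype Columbia 0, 6 that had received 1 h of light following a night in darkness and 6 that were harvested dark adapted. The comparison asked which transcripts differ after the first hour of light, and in this design the light itself and the time since the night cannot be told apart. The labels name no organ, plant age, light intensity or pooling of plants. In RNA from whole samples, fewer cells of a type and less RNA per cell cannot be told apart.

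Peroxiredoxins are thiol enzymes that reduce hydrogen peroxide and other peroxides with a reactive cysteine. When peroxide is abundant, that cysteine can be oxidised too far for the usual reductants, and sulfiredoxin spends ATP to bring it back. In chloroplasts the reducing power for thiol enzymes comes by separate routes. Ferredoxin-thioredoxin reductase takes electrons from ferredoxin, which photosynthesis reduces in light, and passes them to thioredoxins. NTRC carries a reductase and a thioredoxin domain in 1 protein, draws on NADPH, and is known as a reductant of plastid peroxiredoxins also in darkness. These statements are background and not results of these arrays.

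Of the 4 transcripts, SRX was higher in every light array than in any dark array, NTRC was lower in every light array than in any dark array, AT2G04700 was higher in 5 of 6 light arrays than in any dark array, and AT3G52960 varied so widely within both groups that no direction could be read. Over all arrays, 26.6% of the 2966 probes tested also had groups that did not overlap, 13.2% with light above dark and 13.4% with light below dark. All 4 genes passed the filter on dim probes. At an adjusted p of 0.05 in limma, fitted over all probes, 40.4% of the probes passed in either direction (19.9% higher and 20.5% lower in light), and SRX and NTRC were 2 members among them. With the replicate number as a block, 3 members passed, beside 641 probes higher and 673 lower in light of the 2966. With consecutive numbers averaged, 1 member passed, beside 406 probes higher and 408 lower. Since the members were chosen on this contrast, nothing is read from those counts.

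Arrays gave 1 relative intensity per probe on a scale that ends at 100. Below, a scaled intensity is that value after the arrays were given the same distribution, and a log2 change is light minus dark on the log2 of it. Among the deposited values, 11.7 to 15.7% of an array were exactly 0, so dim values have little below them. Columns with replicate numbers 1 and 2, 3 and 4, and 5 and 6 of a group had similar sums of all intensities and may be repeat measurements. If they are, an SE over 12 arrays counts repeats as separate samples. With consecutive numbers averaged, the SE of the log2 change was 0.42 for SRX, 0.59 for AT3G52960, 0.26 for AT2G04700 and 0.21 for NTRC, against 0.53, 0.92, 0.30 and 0.18 over 12 arrays. Averaging thus lowered the SE of SRX, AT3G52960 and AT2G04700 and raised that of NTRC. A fit to single arrays with the consecutive pair as a random block went the other way and raised the SE of all 4 genes. It was 0.624 for SRX, 0.355 for AT2G04700 and 0.201 for NTRC, and that of AT3G52960 was again the largest. The lower SEs after averaging are therefore not read as a gain in precision. Intensities of different probes are not read as amounts of different transcripts.

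SRX, the repair enzyme, was the member with the widest gap between groups. Its scaled intensity was 0.221 at the lowest, 0.460 at the median and 0.629 at the highest in light arrays, against 0.0067, 0.0318 and 0.0801 in dark arrays. The groups were far apart: the lowest light value was 2.76 times the highest dark value, and on the deposited values the same ratio was also 2.76. The fitted log2 change was 3.81 (SE 0.53, n = 6 arrays each), or 14.1-fold. That size leans on the dim end of the scale, because dark replicate 2 was listed at 0 and stands at the floor of 0.0067. Without dark replicate 2 the log2 change was 3.39. With a higher floor, at the 25% quantile of the positive values, it was 1.52 (SE 0.21), and the direction was the same. Averaged over the 3 consecutive pairs of numbers, SRX stood at 0.443 ± 0.082 in light and 0.0384 ± 0.0180 in the dark (SD, n = 3).

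**Figure D1:**
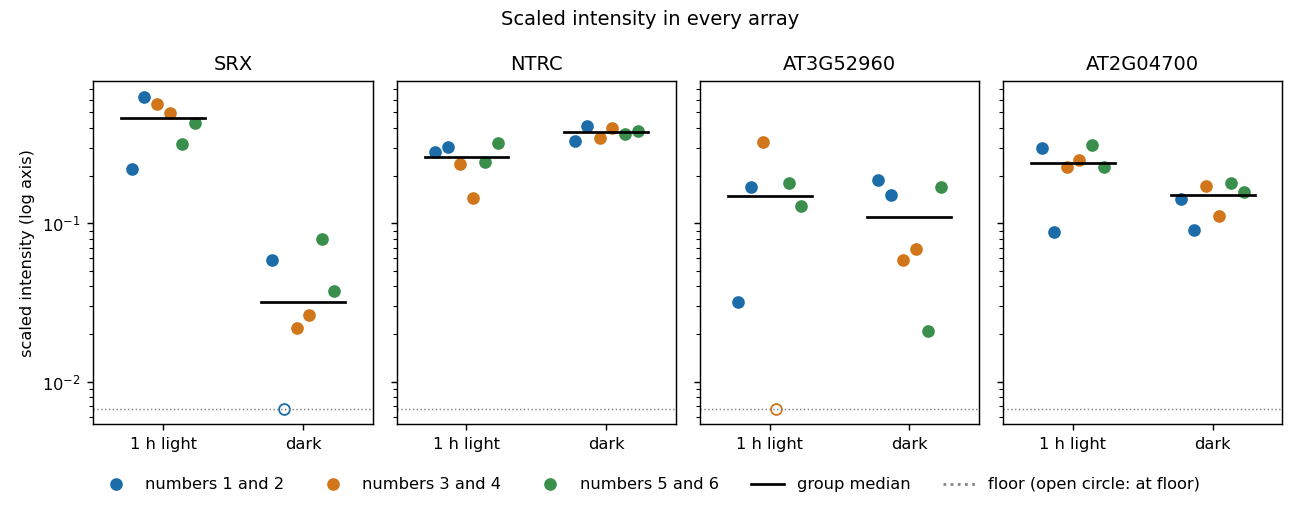
Scaled intensity (log axis) of SRX, NTRC, AT3G52960 and AT2G04700 in every array, 1 h light left and dark right in each panel. Points are single arrays, coloured by consecutive pair of replicate numbers, black lines are group medians, and the dotted line is the floor at 0.0067. The 6 light values of SRX lie between 0.221 and 0.629, all above the dark values, whose highest is 0.0801.

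The light arrays of SRX were not alike among themselves. Light replicate 1 was the lowest at 0.221, while its pair partner, light replicate 2, was the highest at 0.629. The difference of light minus dark within a replicate number was positive in 6 of 6 numbers, from 1.92 in number 1 to 6.54 in number 2 on the log2 scale. Number 2 owes its size to the dark array listed at 0. In numbers 3, 4 and 6 the difference was 4.70, 4.23 and 3.52, and in number 5 it was 1.98. Numbers 1 and 5, with the smallest differences, had both the lowest light values (0.221 and 0.315) and the highest dark values (0.0582 and 0.0801). By place within its own array, which no scaling changes, SRX ran from the 47.1 to the 80.5 percentile of the 3439 probes in light and from the 7.36 to the 24.6 percentile in the dark.

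AT3G52960, the peroxiredoxin, gave no readable direction. Its scaled intensity was 0.0067 at the lowest, 0.148 at the median and 0.325 at the highest in light arrays, against 0.0210, 0.109 and 0.187 in dark arrays. The dark range lay inside the light range. Light replicates 3 and 4, a consecutive pair, held the highest value of all, 0.325, and the lowest, which stands at the floor. The deposited values of that pair were 0.347 and 0.0199. The scaling widened this gap and put light replicate 4 at the floor, while as deposited light replicate 1 was the lowest, at 0.0159. The log2 change was -0.09 with an SE of 0.92, and the difference within a replicate number was positive in 3 of 6 numbers, from -3.34 to 3.09. Its SD within groups, 1.70 on the log2 scale, was at or above that of 95.5% of the probes tested. When the probes tested were divided by mean level into 4 bins of equal size, the median SD was 1.27 in the lowest bin, which holds AT3G52960. The SE of 0.92 exceeds the log2 changes of NTRC and AT2G04700, so a change of their size was not detectable here, and the values do not show that AT3G52960 was steady.

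AT2G04700, of the ferredoxin route, was higher in most light arrays. Its scaled intensity was 0.0878 at the lowest, 0.239 at the median and 0.312 at the highest in light arrays, against 0.0901, 0.150 and 0.179 in dark arrays. A single array made the groups overlap: light replicate 2 stood at 0.0878, and the other 5 light arrays lay between 0.227 and 0.312, above every dark array. Light replicate 1, the partner of that array, was at 0.299. Dark replicate 2 was also the lowest of its group, at 0.0901, so the arrays of number 2 were low in both groups. The difference within replicate numbers was positive in 5 of 6 numbers and was -0.04 in number 2, against 0.40 to 1.16 in the others.

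The log2 change of AT2G04700 was 0.66 (SE 0.30) over all 12 arrays and 0.92 (SE 0.19) without light replicate 2. With the replicate number as a block it was 0.66 with an SE of 0.18. Numbers shared between the groups therefore carried part of the spread of this gene. With the consecutive numbers averaged, the gene stood at 0.234 ± 0.039 in light and 0.142 ± 0.026 in the dark (SD, n = 3). By place within the array, it ran from the 25.9 to the 58.7 percentile in light, with a median of 49.6, and from the 26.2 to the 40.5 percentile in the dark, with a median of 35.8.

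NTRC, of the NADPH route, was lower in light. Its scaled intensity was 0.143 at the lowest, 0.262 at the median and 0.323 at the highest in light arrays, against 0.332, 0.374 and 0.412 in dark arrays. The groups did not overlap, but they nearly touched: the highest light value was 0.973 times the lowest dark value. On the deposited values the gap was wider, with a ratio of 0.791. The log2 change was -0.59 (SE 0.18), or 0.665-fold. Light was below dark within 6 of 6 replicate numbers, from -1.47 in number 4 to -0.24 in number 1.

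Light replicate 4 set much of that size. It stood at 0.143, while the other light arrays lay between 0.238 and 0.323, and without it the log2 change of NTRC was -0.43. The size also followed the scaling, and the median of all probes moved the same way. The log2 change of NTRC was -0.76 on the values as deposited, when that median was -0.21. It was -0.39 with arrays centred on the 75th percentile, when that median was 0.16. Relative to the median of all probes, at -0.01 after the scaling used here, the direction was the same in each case. By place within the array NTRC ran from the 34.7 to the 59.8 percentile in light and from the 60.7 to the 68.0 percentile in the dark. Dark arrays of NTRC were close together, with an SD of 0.12 on the log2 scale, against 0.42 in light arrays.

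**Figure D2:**
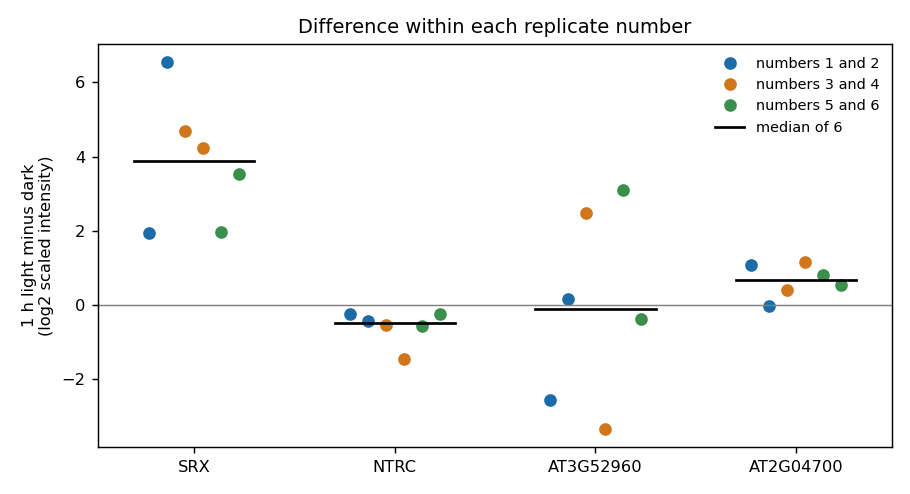
Difference of 1 h light minus dark in log2 scaled intensity within each replicate number, for the 4 genes. Points are the 6 replicate numbers, coloured by consecutive pair, and black lines are the medians of the 6. All 6 numbers lie above 0 for SRX and below 0 for NTRC, 5 of 6 lie above 0 for AT2G04700, and 3 of 6 lie above 0 for AT3G52960.

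Both thioredoxin reductase transcripts, of the ferredoxin and of the NADPH route, thus had opposite signs, 0.66 for AT2G04700 and -0.59 for NTRC on the log2 scale. Whether the 2 changes differ was not tested, because both were known when the genes were chosen. SRX, the repair enzyme, stood at 3.81, while AT3G52960 gave no readable direction to set beside it. No other peroxiredoxin of the list used here was matched to a probe, so the 2-Cys peroxiredoxins, which sulfiredoxin is known to repair, were not analysed here.

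**Figure D3:**
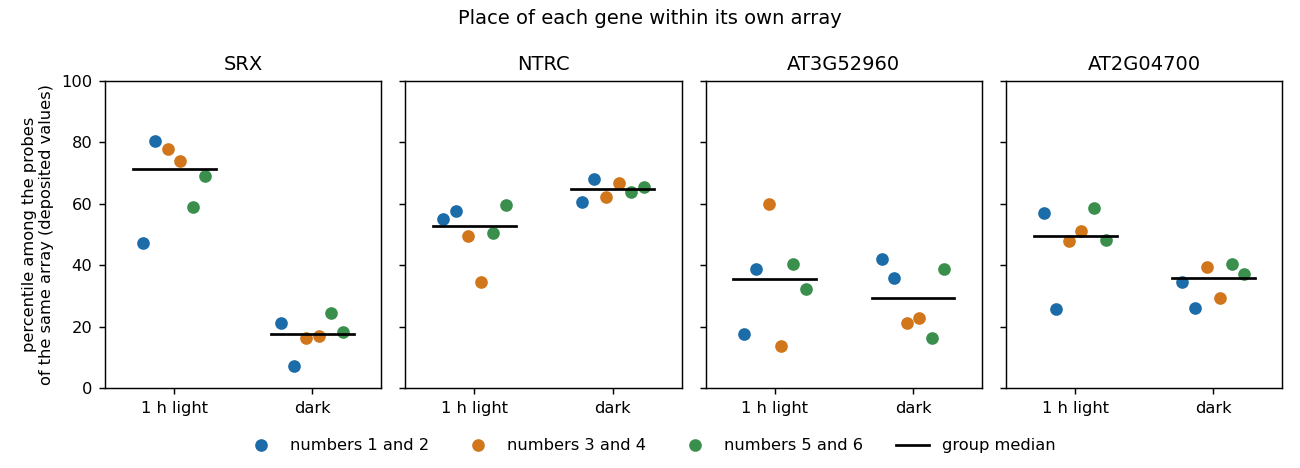
Percentile of each of the 4 genes among the 3439 deposited values of the same array, 1 h light left and dark right in each panel. Points are single arrays and black lines are group medians. The median of SRX was at 71.5 in light and 17.6 in the dark, and that of NTRC at 52.7 in light and 64.7 in the dark.

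The probes of the 4 genes differed in how bright and how steady they were, which bears on what their values can show. By mean level over all arrays, SRX stood at percentile 20.3 among tested probes, AT3G52960 at 15.5, AT2G04700 at 32.5 and NTRC at 53.3. Within groups, the SD on the log2 scale was 0.97 for SRX, 1.70 for AT3G52960, 0.55 for AT2G04700 and 0.31 for NTRC. The dimmer of these 4 probes were the more variable ones, as were dim probes in general. The median SD in the 4 bins of level was 1.27 in the lowest, 0.48 in the next, 0.29 in the third and 0.20 in the highest. Groups that did not overlap made up 8.37% of probes in the lowest bin, where SRX lies, and 27.5% in the third bin, where NTRC lies. The bin comes from the mean over both groups, which the dim dark values of SRX lower. In light arrays the median percentile of SRX within its array was 71.5. The 8.37% is therefore not read as a measure of how unusual its gap was. By log2 change SRX ranked 2 among the 598 single-gene probes tested, a place that depends on the floor.

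Other genes of thiol redox chemistry were rarely on the array alone. Lists of the ferredoxin-thioredoxin system, NADPH-thioredoxin reductases, peroxiredoxins and sulfiredoxin, glutathione and glutaredoxins, ascorbate peroxidases and other antioxidant enzymes, and plastid enzymes under thioredoxin control held 108 loci. Of these, 8 were on single-gene probes, among them the 4 members, and 3 of the other 4 could be tested. All 3 are enzymes that thioredoxin is known to regulate, and all 3 were higher in light, with a median log2 change of 0.95 against -0.01 over all probes, of which 19.9% were higher. A probe shared between another gene of that list and a gene outside it was lower in light (log2 change -1.21), and another such probe was higher (1.68). The fourth, SBPASE, the sedoheptulose bisphosphatase of the Calvin cycle, was listed at 0 in all 12 arrays. The lists were chosen with earlier results of these data known. Nothing is therefore read from the count of 3, and the p-values of list genes below are descriptions only.

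AT5G58330, the NADP-dependent malate dehydrogenase that exports reducing power from the chloroplast, lay between 0.261 and 0.530 in light arrays and between 0.162 and 0.302 in dark arrays. The groups overlapped, and light was above dark in 6 of 6 replicate numbers. Its log2 change was 0.74 (SE 0.21, limma with Benjamini-Hochberg adjustment, adjusted p = 0.015). CHLM, the magnesium protoporphyrin methyltransferase of chlorophyll synthesis, lay between 0.364 and 0.718 in light arrays and between 0.143 and 0.372 in dark arrays (log2 change 0.95, limma adjusted p = 0.0067). PRK, the phosphoribulokinase of the Calvin cycle, lay between 1.88 and 4.82 in light arrays and between 0.394 and 0.759 in dark arrays (log2 change 2.02, limma adjusted p = 6.8e-05). PRK alone of these 3 had groups that did not overlap. It lies in the highest of the 4 bins of level, where 54.9% of probes had groups that did not overlap. With consecutive numbers averaged, PRK passed (limma adjusted p = 0.0078), and AT5G58330 and CHLM did not (limma adjusted p = 0.11 and 0.061). Without numbers 5 and 6 of both groups, AT5G58330 and CHLM did not pass either (limma adjusted p = 0.085 and 0.094), nor did AT5G58330 without numbers 3 and 4 (limma adjusted p = 0.089).

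A further 6 tested probes match several genes of 1 list and no other gene, and none of the 6 passed in limma (adjusted p from 0.058 to 0.96). Their log2 changes ran from -0.49 to 0.47. The nearest to the threshold was a probe shared by 3 genes of the ferredoxin-thioredoxin list, at 0.260 to 0.413 in light arrays and 0.163 to 0.328 in dark arrays, with light above dark in 6 of 6 replicate numbers (log2 change 0.46, SE 0.18). Apart from these 6, 2 tested probes match 1 gene of the thioredoxin-regulated list together with a gene outside it, and both passed, in opposite directions. The first was lower in light, at 0.503 to 0.818 in light arrays and 1.36 to 1.85 in dark arrays (log2 change -1.21, limma adjusted p = 3.0e-05). The second was higher, at 1.07 to 1.29 in light arrays and 0.309 to 0.426 in dark arrays (log2 change 1.68, limma adjusted p = 2.4e-07). Which of its genes such a probe measured is not known. Among the 6, the probes of the glutathione and glutaredoxin list had log2 changes of 0.04, 0.12 and 0.14, and those of the ascorbate peroxidase list of -0.49 and 0.47. Markers of leaf, guard, phloem, root, flower and meristem cells were matched to no probe here, so the makeup of the samples was not checked.

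**Figure D4:**
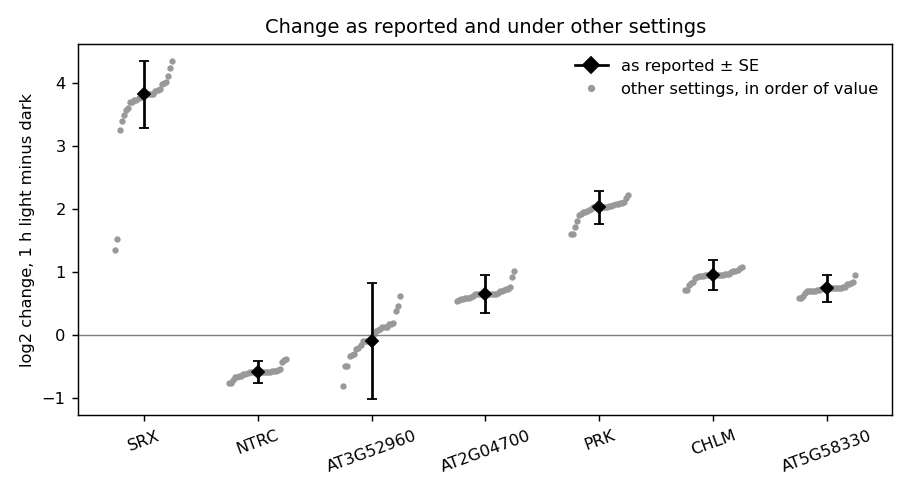
Log2 change, 1 h light minus dark, of the 4 genes and of the 3 thioredoxin-regulated enzymes tested. Black diamonds are the values as reported with their SE, and grey points are the same value under each other setting, in order of size. SRX ran from 1.34 to 4.35 and NTRC from -0.76 to -0.38, while AT3G52960 fell on both sides of 0.

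The pattern over the 12 arrays was also set against that of the other 594 single-gene probes, by Pearson correlation of log2 values, as a description. All points share the 2 groups and the consecutive pairs. The genes most like SRX were SIRB, the sirohydrochlorin ferrochelatase of siroheme synthesis, AT3G54210 and AT3G26630 (r = 0.95, 0.94 and 0.93), and 46 probes had r above 0.8. After the group means were taken out, r with SRX was 0.77 for SIRB, 0.56 for AT3G54210 and 0.53 for AT3G26630. Dark replicate 2, at the floor for SRX, was the lowest dark array of SIRB too, at 0.0275 against 0.0822 or more in the others.

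The genes most like NTRC were AT2G31800, AT4G00170 and AT2G37000 (r = 0.92, 0.88 and 0.88), and this likeness rested in part on light replicate 4, which was low in NTRC, AT2G31800 and AT4G00170. Without that array r was 0.76, 0.62 and 0.68. Those most like AT2G04700 were AT3G06870, AT1G11820 and AT2G41120 (r = 0.88, 0.84 and 0.83), and without light replicate 2 r was 0.89, 0.82 and 0.78. For AT3G52960 no probe reached 0.8. The nearest were AT3G56010, DAL1 and SPL, a regulator of spore formation in flowers (r = 0.73, 0.71 and 0.70). Without light replicate 4, r with AT3G52960 was 0.68, 0.50 and 0.32, so none of these genes followed it closely over the other arrays. The remaining probes were not ranked again without that array.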

How the data were processed

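RNA was measured on arrays in 12 samples, with groups and replicate numbers from the titles. Separate plants or cultures are not stated, so p-values cover only the spread between samples, part or all of which may be technical. The authors deposited 1 intensity per probe and array, with scanning, scaling and background correction not given in the sources used here. The column sums ran from 2943 to 3683 and the medians from 0.204 to 0.289, so quantile normalization was applied. A floor of 0.0067, the 1% quantile of positive deposited values, was set before taking log2. A filter removed 473 of 3439 probes, those at the floor in over 6 of the 12 arrays. The contrast of light minus dark was fitted with limma 3.58.1 in R 4.3.3 (lmFit, eBayes, two-sided), with Benjamini-Hochberg adjustment over 2966 probes. The procedure was tested on simulated data. Figures used matplotlib 3.10.9. The number of arrays limits the precision.

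The platform annotation, which is old, lists 1 gene for 692 probes (690 matched by identifier to a TAIR10.1 gene table), several for 870 and none for 1877. Probes with several genes name none. Named are the members, every list gene on a single-gene probe, and the 3 most alike genes per member. Members and lists were chosen with earlier results of these data known.

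Same-numbered dark and light columns deviated together from their group means (r from 0.301 to 0.557 over the 1483 brighter probes), so the replicate number was used as a block in an alternative fit. This pairing comes from the values, not the labels. Other alternatives covered scaling, floor, filter, variance model, array weights, left-out arrays and consecutive pairs.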

Additional observations from a re-analysis of the deposited data

Results flagged for a closer look

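Among 38 sets of 6 values of the genes named above, 6 held a single array set well apart, its gap to the nearest array being most of the range of the 6. Independent sets of normal values would give this in about 1 set in 20. That rate does not apply here, because many of these genes were chosen for likeness to a member on these same arrays. The count of 6 is therefore not set against it. Values here are log2 scaled intensities. For AT2G04700 light replicate 2 gave -3.51, while the other 5 light arrays had a median of -2.004, the comparison used for each gene that follows. PRK in that array was at 2.27 against 1.03. SIRB in dark replicate 2 was at -5.18 against -3.14. AT2G31800 was at -6.31 in light replicate 4 against -2.51, and at -1.96 in dark replicate 4 against -0.94. AT4G00170 in light replicate 4 was at -5.004 against -2.42.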

How the results depend on the processing

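The direction of SRX was the same in 28 of 28 other settings, of NTRC in 29 of 29 and of AT2G04700 in 29 of 29, whereas AT3G52960 was positive in 13 and negative in 14. SRX and AT3G52960 left the tested set when probes at the floor in any array were removed. AT3G52960 also left it on the values as deposited with the floor at the 25% quantile, a setting chosen after seeing the data. The log2 change of SRX was 1.52 with the floor at the 25% quantile and 1.34 in that later setting, because a higher floor raises its dark values. Without 1 array, the log2 change was 3.39 to 4.10 for SRX, -0.66 to -0.43 for NTRC, -0.50 to 0.62 for AT3G52960 and 0.53 to 0.92 for AT2G04700. Without 1 consecutive pair it was 3.49 to 4.35, -0.71 to -0.38, -0.82 to 0.46 and 0.59 to 0.72. Of the 3 thioredoxin-regulated enzymes, 1 passed with consecutive numbers averaged and 1 to 3 without 1 pair. Fewer of all probes passed in those settings too, against 589 higher and 609 lower in the main fit. Averaging left 406 higher and 408 lower. Leaving out 1 pair gave 426 to 497 higher and 437 to 514 lower.

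Probes higher and lower in light numbered 589 and 609, 423 and 879 as deposited, 529 and 820 with median centring, 778 and 543 with 75th percentile centring, and 362 and 910 as deposited with the higher floor. The share higher was thus 49.2% in the values reported and 32.5, 39.2, 58.9 and 28.5% in those settings. With the replicate block 641 were higher and 673 lower, and with consecutive numbers averaged 406 and 408. The block changed no call of the 3 enzymes, and left the log2 change of SRX at 3.81 with an SE of 0.63. Dim signal limits SRX in the dark and AT3G52960 in both groups.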
